A study of Saccharomyces cerevisiae with 25 samples.

Results

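The genes of DNA replication and nucleotide reduction were followed here in budding yeast that was deprived of phosphate. The set held 46 genes, taken by name, out of 6650 named genes in the deposited table. All cells were of strain BY4741 with the genotype pho84pr-YFP, pho90_OX, that is, a fluorescent reporter behind the PHO84 promoter and overexpression of the low-affinity phosphate transporter gene PHO90. Which promoter drives the overexpression and how many clones were used is not stated in these sources, and every library carried both alleles, so no library without them served as a control. The cells left high-phosphate medium at 0 min, were washed, and were sampled from medium without phosphate at intervals of 15 min up to 360 min. There was 1 library per time point, 1 from high phosphate and 24 without phosphate, which makes 25 libraries in all.

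Expression is given as log2 RPM, where RPM is the read number after each library was brought to a sum of 1000000. No time point was repeated, so groups of 8 successive libraries were compared: an early window from 15 to 120 min, a middle window from 135 to 240 min and a late window from 255 to 360 min. The p-values therefore measure the spread between libraries of 1 time course, which holds both library noise and change inside a window. Reads in listed genes ranged from 450744 to 2271193 per library, with medians of 1382080 early, 1010602 middle and 612972.5 late. A gene under 15 reads had no value, so the detection floor rose from a median of 10.97 RPM early to 24.5 RPM late. Mating type a genes (MFA1, MFA2, STE2, STE6 and BAR1) were listed in all 25 libraries, HIS3, LEU2 and MET17 in 0 and URA3 in 2. The alpha-specific genes MF(ALPHA)1 and MF(ALPHA)2 were listed in 2 and 0 libraries, and STE3 in 22 with a median level of 5.003. PHO90 lay between 10.68 and 12.40 in the 25 libraries.

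Replication starts at origins, where the origin recognition complex, with Cdc6 and Cdt1, loads the Mcm2-7 helicase in G1. Cdc45 and the GINS complex then turn that helicase into an active fork, DNA polymerase alpha and primase lay down primers, and polymerases epsilon and delta extend them behind the sliding clamp. Ribonucleotide reductase supplies the deoxynucleotides: it joins a large subunit (Rnr1, or Rnr3 as an alternative) to a small subunit made of Rnr2 and Rnr4. Many of these genes peak at the start of S phase through the MBF transcription factor, which binds the sequence ACGCGT (the MluI cell cycle box). RNR2, RNR3, RNR4 and HUG1, whose product inhibits the enzyme, are repressed instead by Rfx1 (Crt1), which binds X-boxes, and are induced by DNA damage or replication stress. In bulk RNA a different share of cells in S phase and a different amount of RNA per cell cannot be told apart.

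Both kinds of sequence were looked for in the 500 bases before each start codon, read from the R64 genome (RefSeq). The exact letters ACGCGT, the same on both strands, were in 21 of 46 member promoters (45.65%) and in 325 of 6000 protein-coding genes (5.417%). The X-box search took TTGCCNNNGCAA on either strand with up to 1 mismatch in its 9 fixed letters. It matched 7 of 46 member promoters (15.22%), those of RNR2, RNR3, RNR4, ORC2, MCM3, RFA3 and PSF3, and 527 of 6000 in all (8.783%). No match of the pair overlapped in a member promoter (0), and a window may run into a neighbouring gene. The stretches below are read along the gene's own strand, 5′ to 3′, with the matched letters in capitals, and were chosen after the values were seen. Those of RNR2, RNR4, RNR3 and HUG1 show the X-box pattern, because the small subunit genes moved most. Each match has 1 mismatch, which for RNR4 is counted on the strand opposite to the gene. The stretches of RNR1, POL30, RFA2, POL1 and PRI2 show ACGCGT, because it is the commoner match in the set. The X-box stretches lie at chrX:391955-391984 (RNR2, plus strand), chrVII:856674-856703 (RNR4, minus), chrIX:240958-240987 (RNR3, minus, the nearest of its 3 matches to the start codon) and chrXIII:158555-158584 (HUG1, plus). The ACGCGT stretches lie at chrV:298567-298596 (RNR1, plus, 1 of its 4 matches), chrII:425944-425973 (POL30, minus), chrXIV:48155-48184 (RFA2, plus, both of its 2 matches), chrXIV:429867-429896 (POL1, plus, 1 of its 2 matches) and chrXI:353316-353345 (PRI2, plus).
RNR2: cacgcgcgaTCGCCATGGCAAcgaggtcgc
RNR4: cgatgggcgTTGTTGTGGCAAcaccatcct
RNR3: aaaacccggTTGCCATGGCGAggaccaaac
HUG1: cgtatctcgTTTCCACAGCAAcgagaaacg
RNR1: aattctaagtaaACGCGTcattttgatcct
POL30: ccaaaacgcgaaACGCGTaacttttttttt
RFA2: gccatatacgaaACGCGTtaggaaACGCGT
POL1: acatctattcaaACGCGTtaaaattttttt
PRI2: tgatttgaaattACGCGTcgcggggaatcg

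Of the 46 genes, 45 were listed in at least 1 library, 24 in all 25, and 37 could be tested because at least 20 of the 24 no-phosphate libraries listed them. MCM10, whose product helps to start the fork, was listed in 0 libraries. The other untested genes were listed in 14 (CDC6), 18 (MCM2), 17 (CDC45), 15 (SLD5), 19 (SLD3), 15 (DPB2), 18 (POL32) and 8 (RNR3) of the 24. No coding span of a member overlapped another annotated gene (0 of 46). RFC5 and POL30 converge with 160 bp between their coding ends, and reads beyond those ends could be counted for either, as strand use is not stated.

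Late in phosphate withdrawal 26 of the 37 tested genes were higher than early and 0 were lower (limma, Benjamini-Hochberg adjusted p under 0.05 over 4343 genes; 0 lower also at an unadjusted p under 0.05). Most of the transcriptome did the same on this scale, since 63.8% of all tested genes were called higher and 7.32% lower. The median difference was 0.47 for the members and 0.45 for all genes (log2 RPM). Ribosomal protein genes took a falling share of the reads over the same time: 34.3% ± 1.98 early, 16.7% ± 8.03 in the middle and 9.45% ± 2.11 late (SD, n = 8 each). When only the reads outside ribosomal protein genes were used for scaling, 4 members were higher and 5 lower, against 24.6% and 24.9% of all genes. With each library centred on its median, 4 members were higher and 4 lower, against 21.7% and 26.8%. The same 4 genes were higher under both: RNR2, RNR4, TOF1 and DPB3. Those lower under both were PSF3, DPB4, RFC1 and RFA3, with RFC3 also lower outside ribosomal protein genes. At a log2 difference of at least 1, RNR2 and RNR4 alone remained (2 of 37, against 13.8% of all genes). They also did so with libraries centred, where 4.17% of all genes passed, and outside ribosomal protein genes, where 4.63% passed. The part of the ribosomal protein share in the deposited-scale differences was not tested.

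Between the early and the middle window 20 of 37 genes were higher and 1 lower, against 48.2% and 7.81% of all genes. Centred on library medians the counts were 6 and 2, against 18.9% and 16.9%, and outside ribosomal protein genes 3 and 3, against 14.8% and 23.2%. Between the middle and the late window 8 genes were higher and 0 lower (0 lower also at an unadjusted p under 0.05), against 20.1% and 4.79%. They were ORC1, ORC3, ORC5, ORC6, POL3, RFC4, RNR2 and RNR4. Centred, 2 were higher (RNR2 and RNR4) and 2 lower (POL30 and RFC5), against 3.62% and 11.7%, and outside ribosomal protein genes 2 were higher and 0 lower, against 8.2% and 6.82%.

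**Figure D1:**
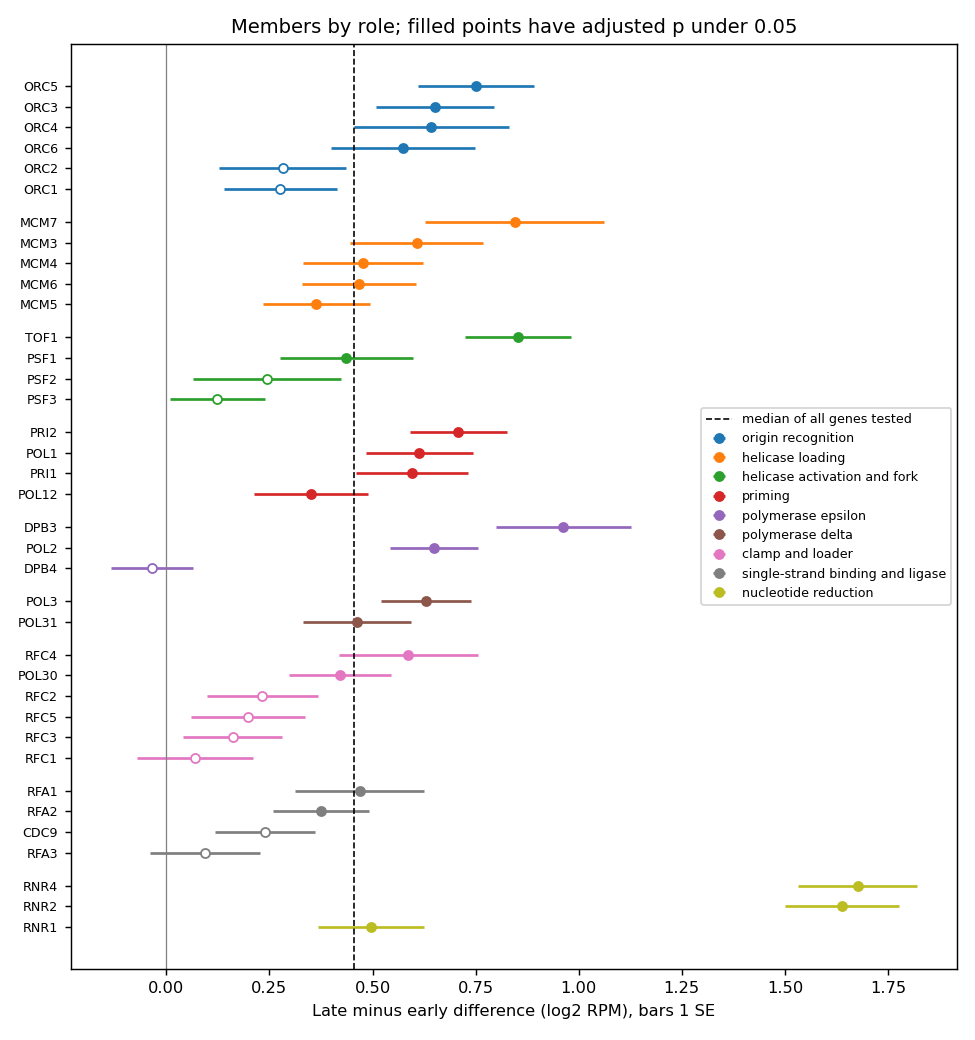
Late minus early difference (log2 RPM) of the 37 tested genes by role. Points are the differences, bars 1 SE, and filled points have a limma adjusted p under 0.05; the dashed line is the median of all 4343 genes tested, 0.45. RNR2 and RNR4 lie at 1.64 and 1.68, and the other 35 genes lie between -0.04 and 0.96.

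The small subunit genes of ribonucleotide reductase carried the largest change of the set. RNR2 (YJL026W, chrX:392404-393603, X-box stretch above) spanned 6.78 to 7.21 in the early libraries, with a median of 7.08. It then spanned 7.16 to 8.48 (median 8.04) in the middle and 8.48 to 8.77 (median 8.65) in the late libraries. Every late library lay above every early library, and the middle libraries ran from the early range up to the late one. RNR2 rose 3.12-fold late over early (log2 1.64, SE 0.14, limma adjusted p = 1.58e-10) and stood at 0.95 middle over early (SE 0.14, limma adjusted p = 5.43e-06).

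RNR4 (YGR180C, chrVII:855264-856301), which encodes the other small subunit protein, also rose across the windows. It spanned 7.74 to 8.30 (median 8.08) in the early libraries, 8.19 to 9.54 (median 9.05) in the middle and 9.60 to 9.89 (median 9.69) in the late libraries. The late libraries lay above all early and all middle libraries, and RNR4 was the only tested member of which this held (1 of 37, against 1.08% of all genes). RNR4 rose 3.20-fold late over early (log2 1.68, SE 0.14, limma adjusted p = 1.82e-10). From 150 min on, every library held both RNR2 and RNR4 above their highest early value. Both kept rising between the middle and the late window, by 0.69 and 0.75 (limma adjusted p = 0.00136 and 0.000857). Centred on library medians the late minus early differences were 1.15 and 1.19, and scaled outside ribosomal protein genes they were 1.18 and 1.21.

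**Figure D2:**
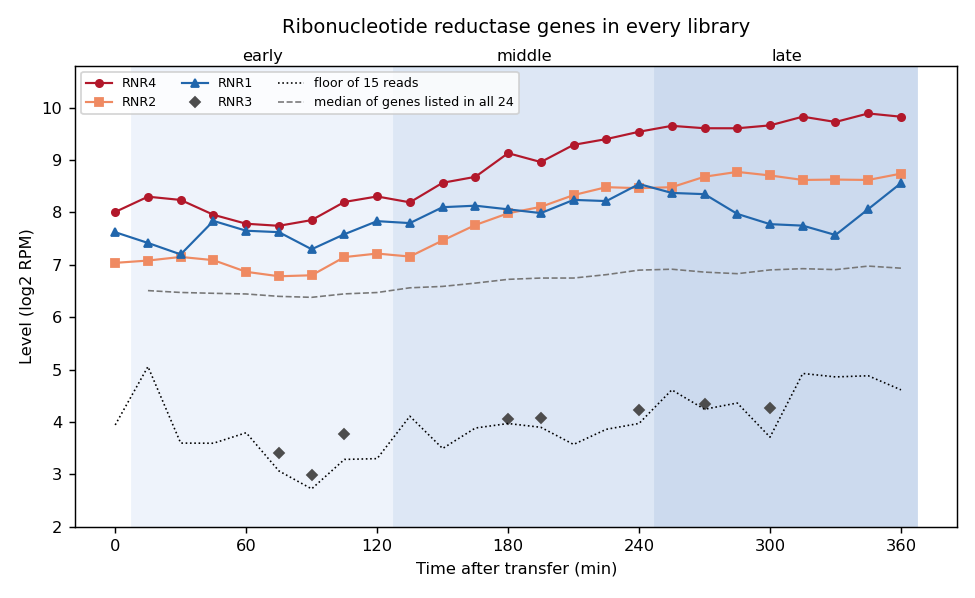
Level (log2 RPM) of the 4 ribonucleotide reductase genes in each of the 25 libraries against time after transfer (min), with the window borders marked. RNR2 and RNR4 climb from about 120 min and stay high, RNR1 rises by 240 min and dips to 7.57 at 330 min, and RNR3 has a value in 8 libraries only.

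RNR1 (YER070W, chrV:298950-301616), the large subunit gene with 4 ACGCGT matches, took another course. It spanned 7.20 to 7.84 (median 7.60) early, 7.80 to 8.54 (median 8.11) in the middle and 7.57 to 8.56 (median 8.02) late. The late range overlapped both others: the level was 8.37 at 255 min, 7.57 at 330 min and 8.56 at 360 min. RNR1 rose 1.41-fold late over early on the deposited scale (log2 0.50, SE 0.13, limma adjusted p = 0.00117), and the difference was 0.01 with libraries centred and 0.03 outside ribosomal protein genes, neither of which passed the test. The 0.58 middle over early (limma adjusted p = 0.000478) was followed by -0.08 late minus middle, which did not pass. Middle over early RNR1 lay at 0.33 with libraries centred and 0.24 outside ribosomal protein genes, and passed on neither scale. Centred on the genes listed in all 24 libraries it lay at 0.31 and passed.

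Ratios taken within a library do not depend on how libraries are scaled, so the subunit genes were also compared in that way, per kb of coding length. These ratios were chosen after the values were seen, apart from the RNR3 to RNR1 ratio, and the p-values describe these libraries only. Library type is not stated in these sources, and a level per kb assumes reads spread along the gene, whereas a change of the ratio between windows does not. The log2 ratio of RNR2 to RNR1 was 0.61 ± 0.27 early and 1.76 ± 0.36 late (SD, n = 8 each), a 2.21-fold change. Its early range of 0.31 to 1.10 did not overlap the late range of 1.26 to 2.21 (exact permutation p = 0.000155, the smallest that 8 against 8 can give; adjusted p = 0.000622 over 8 ratio comparisons). The log2 ratio of RNR4 to RNR1 went from 1.85 ± 0.35 to 3.03 ± 0.37 (SD, n = 8 each), a 2.27-fold change with the same exact p, and its ranges of 1.48 to 2.40 and 2.62 to 3.52 did not overlap either.

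Between the early and middle windows those ratios differed by 0.37 and 0.34, which did not hold after adjustment (exact permutation p = 0.0326 and 0.0637, adjusted 0.0870 and 0.127). Both ratios were highest at 330 min, 2.21 and 3.52, and stood at 1.33 and 2.63 at 360 min, when RNR1 was high. The log2 ratio of RNR4 to RNR2 was 1.24 ± 0.11 early and 1.28 ± 0.15 late (SD, n = 8 each), a difference of 0.04 (exact permutation p = 0.584). Its early range of 1.08 to 1.43 lay inside the late range of 1.04 to 1.48.

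**Figure D3:**
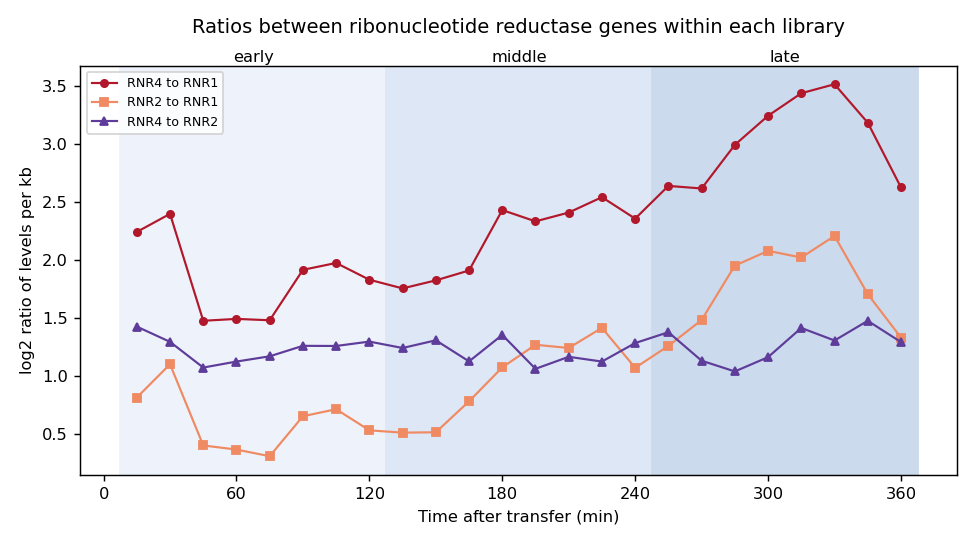
Log2 ratio of levels per kb between ribonucleotide reductase genes within each library against time after transfer (min). The ratios of RNR2 and RNR4 to RNR1 move up to 2.21 and 3.52 at 330 min, while the ratio of RNR4 to RNR2 stays between 1.04 and 1.48 in the early and late libraries.

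RNR3 (YIL066C, chrIX:238099-240708), the alternative large subunit gene and a classic target of DNA damage signalling, stayed at the detection limit. It was listed in 8 libraries, with 16 to 22 reads each: 3 early, 3 middle and 2 late. Where listed, it made 4.90% to 8.22% of the large subunit RNA per kb, and in the other 17 libraries the floor of 15 reads allowed at most 3.87% to 16.6%. The lowest level, 2.99 at 90 min, came from the deepest library (exact Poisson 95% interval 2.23 to 3.65, counting error only), and the highest, 4.34 at 270 min, from 16 reads (3.53 to 5.04). The log2 ratio of RNR3 to RNR1 was -4.08 ± 0.26 (SD, n = 3) early and -3.73 ± 0.35 (SD, n = 2) late, a difference of 0.35 (exact permutation p = 0.3, where 0.1 is the smallest possible). The listed late levels (4.26 and 4.34) lay above the listed early ones (2.99 to 3.77), but the floor was also higher late, and a change of RNR3 was not detectable at this depth.

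Of the 6 origin recognition genes, 4 were higher late over early on the deposited scale, ORC3 (0.65), ORC4 (0.64), ORC5 and ORC6 (0.57), where 63.8% of all genes were. ORC4 was listed in only 5 late libraries, with 16 to 25 reads each, and the higher late floor hides lower values there. With missing values set to the library minimum its difference was 0.48, smaller but still past the limma test. With all 24 libraries, 0 of the 6 genes passed the limma test middle over early (0 also at an unadjusted p under 0.05), against 48.2% of all genes. Late over middle 4 passed as higher, ORC1, ORC3, ORC5 and ORC6, with differences of 0.40 to 0.60, against 20.1% of all genes. Without the 15, 345 and 360 min libraries, ORC3 (0.33) and ORC5 (0.32) did pass middle over early (limma adjusted p = 0.0209 and 0.0392). Under that setting 2237 of 4343 genes were higher. ORC5 (YNL261W, chrXIV:155100-156539), which encodes an ATP-binding subunit, spanned 4.59 to 5.47 (median 5.11) early, 5.05 to 5.76 (median 5.39) in the middle and 5.41 to 6.38 (median 5.76) late. Neighbouring windows overlapped, and ORC5 rose most of the complex late over early, by 0.75 (SE 0.14, limma adjusted p = 3.07e-05).

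ORC1, which encodes the largest subunit, had the smallest late minus early difference of the complex, 0.28 (SE 0.14, limma adjusted p = 0.0721). It spanned 4.94 to 5.39 (median 5.04, 7 libraries) early, 4.56 to 5.39 (median 5.02) in the middle and 5.10 to 5.86 (median 5.39) late. The early and middle ranges overlapped almost wholly, apart from a low value of 4.56 at 165 min. ORC1 was lower in the middle than early once libraries were centred (-0.43) or scaled outside ribosomal protein genes (-0.45), and it did not pass on the deposited scale (-0.12). Of the 4 late over middle calls, none passed on either of these scales (0 of 6 genes of the complex), and some did not survive leaving out 1 library. Without the 150, 165, 300, 315 or 330 min library ORC1 lost its call (0.33 to 0.39), and without the 135, 150, 165, 195, 255, 300 or 315 min library ORC3 did (0.38 to 0.42). ORC5 did not pass late over middle without the 15, 345 and 360 min libraries (limma adjusted p = 0.0589).

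Of the tested genes of helicase loading, 5 of 5 were higher late than early on the deposited scale, by 0.36 to 0.84, against 63.8% of all genes. Middle over early 3 of 5 were higher (MCM3, MCM4 and MCM7), against 48.2% of all genes, and each of these calls was lost when any of several single libraries was left out (7, 7 and 3 libraries). MCM7 (YBR202W, chrII:625772-628309), a helicase subunit, spanned 3.48 to 4.87 (median 3.99, 6 libraries) early, 4.23 to 5.22 (median 4.63) in the middle and 4.34 to 5.27 (median 5.03, 6 libraries) late. The windows overlapped, and the values rest on 16 to 47 reads per library. MCM7 was the least abundant tested member per kb, at 9.38 RPM per kb. Its difference of 0.84 late over early (SE 0.22, limma adjusted p = 0.00132) was the largest of the helicase, and the 0.36 of MCM5 the smallest (SE 0.13, limma adjusted p = 0.0136). With missing values set to the library minimum, MCM7 lay at 0.68 late over early, still past the limma test. Its middle over early difference was then 0.47 and did not pass (limma adjusted p = 0.0582). MCM5 spanned 5.19 to 5.99 (median 5.55) early, 5.55 to 6.11 (median 5.73) in the middle and 5.66 to 6.28 (median 5.95) late, with overlap between all windows.

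None of the 5 loading genes was called on the centred or the ribosomal-protein-free scale (0 each), where MCM5 lay at -0.12 and -0.10. MCM4 (-0.01) and MCM6 (-0.08) also turned negative with libraries centred. MCM2, under the filter, was listed in 7 early, 8 middle and 3 late libraries. CDC6, the loader, was listed in 5 early, 5 middle and 4 late libraries, between 3.80 and 4.92.

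Among genes of fork activation, 2 of 4 tested were higher late than early, TOF1 and PSF1, against 63.8% of all genes. TOF1 (YNL273W, chrXIV:122883-126599), which encodes a fork protection and checkpoint mediator protein and has 2 ACGCGT matches, spanned 4.55 to 5.28 (median 4.75, 7 libraries) early, 5.01 to 5.81 (median 5.44) in the middle and 5.42 to 6.02 (median 5.66) late. The late libraries lay above the early ones without overlap, and TOF1 rose 1.81-fold (log2 0.85, SE 0.13, limma adjusted p = 1.53e-06). The difference was 0.31 with libraries centred and 0.39 outside ribosomal protein genes, and it passed on both scales.

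Of the tested GINS genes, PSF1 was higher late over early (0.44, limma adjusted p = 0.0170) on the deposited scale and lay at -0.05 when centred, while PSF2 (0.24) and PSF3 did not pass. PSF3 spanned 5.47 to 5.87 early, 5.11 to 5.77 in the middle and 5.41 to 6.13 late, overlapping throughout, with a difference of 0.12 (SE 0.12, limma adjusted p = 0.338). It was called lower once libraries were centred (-0.36) or scaled outside ribosomal protein genes (-0.34). The untested genes of this group lay near the floor. SLD3, which encodes an origin firing factor, spanned 3.70 to 4.33 in 7 early libraries, 3.84 to 4.50 in 7 middle and 4.26 to 5.79 in 5 late ones. CDC45 spanned 3.96 to 4.37 in 6 early and 4.42 to 4.95 in 3 late libraries, and SLD5 3.63 to 4.03 in 6 early and 4.39 to 4.91 in 3 late ones. The floor was higher late and hides lower values there, so no change can be read from the listed values of these genes.

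All 4 genes of the polymerase alpha-primase complex were higher late than early on the deposited scale, where 63.8% of all genes were, and 3 of 4 in the middle, against 48.2%. PRI2 (YKL045W, chrXI:353493-355079), the large primase subunit gene, spanned 5.92 to 6.68 (median 6.39) early, 6.60 to 7.05 (median 6.98) in the middle and 6.75 to 7.67 (median 7.10) late. The late libraries lay above the early ones, and 15 of the 16 later libraries exceeded the highest early value. PRI2 rose 1.63-fold (log2 0.71, SE 0.12, limma adjusted p = 5.37e-06).

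PRI1, the catalytic primase subunit gene, also separated early from late without overlap (0.60, limma adjusted p = 0.000292), and POL1, the polymerase subunit gene, rose by 0.61 (limma adjusted p = 0.000128). POL12, the regulatory subunit gene, had the smallest difference of the complex, 0.35 (SE 0.14, limma adjusted p = 0.0256). It spanned 4.90 to 5.54 (median 5.42) early, 5.28 to 5.84 (median 5.65) in the middle and 5.20 to 6.22 (median 5.66) late, and its call was lost without the 30, 75, 270 or 345 min library, with differences of 0.27 to 0.32. It turned to -0.14 with libraries centred and -0.11 outside ribosomal protein genes. None of the 4 genes was called on those scales late over early (0 of 4).

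The polymerase epsilon genes moved in different directions. DPB3 (YBR278W, chrII:760294-760899), a small non-catalytic subunit gene, spanned 4.21 to 5.63 (median 4.80, 7 libraries) early, 5.41 to 5.75 (median 5.59) in the middle and 5.06 to 6.20 (median 5.83) late. The ranges overlapped through a high early value at 75 min and a low late one at 345 min. DPB3 rose 1.95-fold (log2 0.96, SE 0.16, limma adjusted p = 9.15e-06), and by 0.42 with libraries centred and 0.50 outside ribosomal protein genes. POL2, the catalytic subunit gene, rose by 0.65 (limma adjusted p = 4.96e-06), and all 8 of its middle libraries lay above the early ones, as for no other tested member (1 of 37, against 7.55% of all genes). Late over early POL2 lay at 0.16 with libraries centred and 0.18 outside ribosomal protein genes, and passed on neither scale. Middle over early it passed with libraries centred (0.32, limma adjusted p = 0.0159). Outside ribosomal protein genes it lay at 0.23 and did not pass (limma adjusted p = 0.0698).

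DPB4 (YDR121W, chrIV:693585-694175) encodes the histone-fold partner of Dpb3, and its product is also part of a chromatin remodelling complex. It spanned 6.16 to 6.44 (median 6.32) early, 5.87 to 6.29 (median 6.08) in the middle and 5.91 to 6.53 (median 6.37) late. The middle libraries were lower but overlapped the early ones, and the late libraries overlapped both. DPB4 fell by 0.25 middle over early (SE 0.10, limma adjusted p = 0.0317), the only member called lower there, and this was lost without the 60, 165, 195 or 210 min library (-0.24 to -0.23). Late minus early it was -0.04 on the deposited scale, -0.52 with libraries centred and -0.50 outside ribosomal protein genes, and it was called lower on the latter scales. DPB2, the essential second subunit gene, was listed in 15 of the 24 libraries, between 3.48 and 5.10.

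The 2 tested polymerase delta genes were both higher late than early on the deposited scale, where 63.8% of all genes were. Neither was called late over early with libraries centred or outside ribosomal protein genes. POL3 (YDL102W, chrIV:276872-280165), the catalytic subunit gene, spanned 5.69 to 6.21 (median 5.82) early, 5.73 to 6.46 (median 6.20) in the middle and 6.36 to 6.93 (median 6.47) late. The late libraries lay above all early ones, and the difference was 0.63 (SE 0.11, limma adjusted p = 1.06e-05), or 0.14 with libraries centred. Middle over early the difference was 0.29 on the deposited scale and -0.05 outside ribosomal protein genes. POL31, a non-catalytic subunit gene, spanned 5.86 to 6.48 (median 6.17) early, 6.20 to 6.92 (median 6.48) in the middle and 6.08 to 7.02 (median 6.61) late, with overlap throughout. It rose by 0.46 late over early (limma adjusted p = 0.00255) and lay at -0.02 with libraries centred. POL32 was listed in 7 early libraries (3.46 to 4.28), 7 middle (4.34 to 5.20) and 4 late ones (4.51 to 4.91), and the libraries without a value, with a floor that rose late, allow no comparison.

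The clamp gene POL30 (YBR088C, chrII:424990-425766), which encodes PCNA, had its highest window median in the middle. It spanned 6.77 to 7.57 (median 7.11) early, 7.46 to 7.90 (median 7.81) in the middle and 7.12 to 8.17 (median 7.53) late. The middle and early libraries overlapped only between 7.46 and 7.57. The difference was 0.64 middle over early (SE 0.12, limma adjusted p = 0.000118) and 0.42 late over early (SE 0.12, limma adjusted p = 0.00358), the latter turning to -0.07 with libraries centred. Middle over early it was 0.39 with libraries centred, which passed, and 0.30 outside ribosomal protein genes, which did not. Late minus middle it was -0.22, which did not pass, and -0.46 with libraries centred, which did, as did RFC5 (-0.45).

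Of the 5 clamp loader genes, RFC4 alone was higher late than early, by 0.59 (SE 0.17, limma adjusted p = 0.00301), against 63.8% of all genes, and it lay at 0.04 with libraries centred and 0.13 outside ribosomal protein genes, where it did not pass. It spanned 5.15 to 5.75 (median 5.25, 7 libraries) early, 4.87 to 5.96 (median 5.49) in the middle and 5.10 to 6.35 (median 5.96) late, with overlap throughout. RFC1, the large loader subunit gene, showed the smallest difference, 0.07 (SE 0.14, limma adjusted p = 0.667), and was called lower with libraries centred (-0.42) and outside ribosomal protein genes (-0.39). It spanned 4.93 to 5.61 (median 5.39) early, 5.04 to 5.73 (median 5.40) in the middle and 4.95 to 5.97 (median 5.51) late. RFC2 (0.23), RFC3 (0.16) and RFC5 (0.20) did not pass late over early. RFC5 was higher in the middle than early by 0.42 (limma adjusted p = 0.00777), and lay at 0.17 with libraries centred, where it did not pass. RFC3 passed narrowly middle over early (0.28, limma adjusted p = 0.0496), and its call was lost without any 1 of 13 libraries and under other settings, among them missing values set to the library minimum (limma adjusted p = 0.0624) and libraries centred (0.03). It turned to -0.06 outside ribosomal protein genes.

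Of the single-strand DNA binding protein genes, RFA1 and RFA2 were higher late than early on the deposited scale, where 63.8% of all genes were. RFA3 did not pass. RFA1 (YAR007C, chrI:156754-158619), the large subunit gene, spanned 5.33 to 6.54 (median 5.84) early, 6.20 to 6.86 (median 6.43) in the middle and 5.93 to 6.78 (median 6.31) late, with overlap between all windows. Its differences were 0.62 middle over early (limma adjusted p = 0.00152) and 0.47 late over early (SE 0.16, limma adjusted p = 0.00919), the latter at -0.02 with libraries centred. RFA2 rose by 0.38 and lay at -0.11 with libraries centred. Middle over early RFA1 lay at 0.38 with libraries centred and 0.29 outside ribosomal protein genes. Of the 4 genes of single-strand binding and ligase, 1 was called higher on the former scale and 0 on the latter. Of all genes 18.9% and 14.8% were.

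RFA3, the smallest subunit gene and the most abundant member per kb (643 RPM per kb), spanned 7.57 to 8.11 (median 7.69) early, 7.66 to 8.28 (median 7.98) in the middle and 7.47 to 8.65 (median 7.85) late, and differed by 0.09 late over early (SE 0.13, limma adjusted p = 0.535). It was called lower with libraries centred (-0.39) and outside ribosomal protein genes (-0.37). CDC9, the DNA ligase gene, did not pass (0.24, limma adjusted p = 0.0797).

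**Figure D4:**
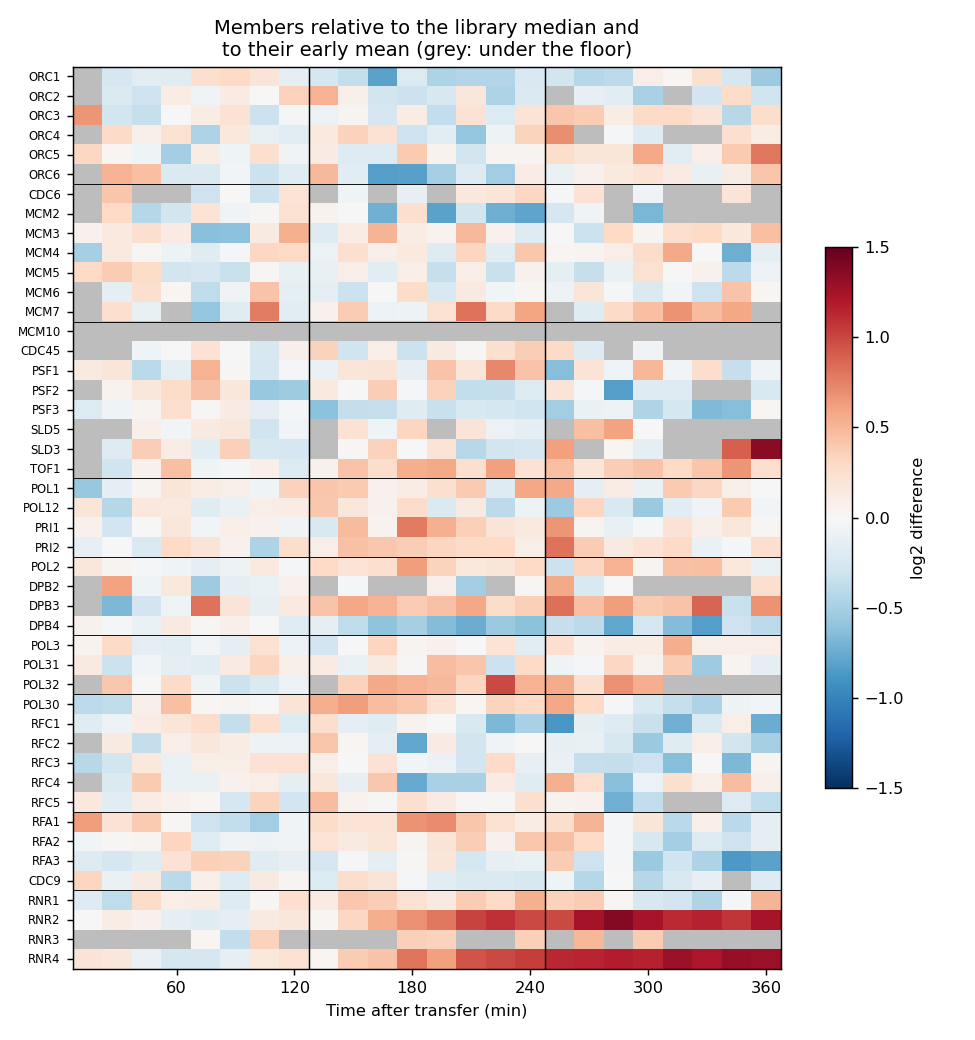
Each of the 46 genes (rows, by role) in the 24 no-phosphate libraries (columns, min after transfer), as log2 level minus the median of the genes listed in all 24 libraries and minus the gene's early mean; grey marks no value, and lines mark roles and windows. RNR2 and RNR4 are the rows that stay well above 0 late, DPB4 is below 0 from the middle window on, and MCM10 is grey throughout.

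Seen as smooth courses, 6 of 37 genes (16.2%) passed a spline test with a fitted range of at least 1, against 32.2% of all genes: RNR2, RNR4, DPB3, MCM7, TOF1 and ORC6. Late libraries lay above early ones without overlap for 6 of 37 tested genes, against 28.2% of all genes: TOF1, PRI1, PRI2, POL3, RNR2 and RNR4. The spline count fell to 3 with libraries centred, against 19.1% of all genes.

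The 255 min library held the highest value of 10 of the 37 tested members (27.0%), against 9.37% of all tested genes: ORC3, ORC4, PSF2, PRI1, PRI2, POL30, RFC4, RFA2, RFA3 and CDC9. With libraries centred these were 5 of 37 (13.5%), against 3.48%, and outside ribosomal protein genes 9 of 37 (24.3%), against 6.33%. Of 34 members with a value in the libraries around it, 17 stood higher at 255 min than at both 240 and 270 min, against 40.6% of all genes. That time was picked after the values were seen, so no test is given.

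Changes of genes with and without ACGCGT are given side by side, with no test. Of 16 tested genes with the match 14 were higher late over early, with a median difference of 0.48, and of 21 without it 12 were, with a median of 0.47; over all genes these were 63.8% and 0.45. With libraries centred 1 gene with the match was higher and 1 lower, and without it 3 and 3, against 21.7% and 26.8% of all genes. Middle over early, 10 of 16 genes with the match were higher (median 0.43), and 10 of 21 without it (median 0.27). Over all genes these were 48.2% and 0.28. With libraries centred 4 genes with the match were then higher and 0 lower (median 0.19), and without it 2 and 2 (median 0.02). Of all genes 18.9% and 16.9% were, with a median of 0.03. The group without the match held RNR2 and RNR4.

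The high-phosphate library at 0 min was set against the range of the early libraries that listed each gene. Of 41 comparable members, 5 were above all listed early values (CDC45, SLD3, PRI1, RFC2 and RFC5) and 5 below (ORC1, POL12, DPB3, POL3 and RFA2), against 16.6% and 23.6% of all genes, with no test possible for 1 library. CDC45, SLD3, ORC1 and DPB3 had no value at 15 min, where the floor of 33.3 RPM lay above their 0 min levels. Their place against that library is therefore not known. DPB3 lay barely below, at 4.207 at 0 min against 4.214 at 30 min. POL12 at 0 min rested on 15 reads, a level of 3.94 (exact Poisson 95% interval 3.11 to 4.67). RNR1, RNR2 and RNR4 were at 7.62, 7.04 and 8.01 at 0 min, each within its early range.

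Other genes of these pathways, from lists chosen with earlier results known, are given as counts late over early, to be read against 63.8% of all genes higher, 7.32% lower and a median of 0.45 on the deposited scale. In the list of deoxynucleotide synthesis and its regulators the median was 0.42, and of 22 tested genes 13 were higher and 1 lower. HUG1, whose promoter also matches the X-box pattern, rose from 4.63 ± 0.31 to 7.26 ± 0.22 (SD, n = 8 each), a 6.19-fold change (log2 2.63, SE 0.26, limma adjusted p = 3.56e-09). It stood at 2.14 with libraries centred. WTM1, whose product retains the small subunit in the nucleus, rose 3.68-fold (log2 1.88, limma adjusted p = 4.21e-10), and GRX1, a glutaredoxin gene, by 1.80. SML1 and DIF1, which encode an inhibitor of the enzyme and a nuclear import factor of the small subunit, rose by 0.50 each and lay at 0.01 and 0.02 with libraries centred. The thioredoxin gene TRX1 fell by 0.31. RFX1 and the checkpoint kinase gene DUN1 were listed in too few libraries for a test.

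Of DNA damage induced genes, 10 of 13 tested were higher and 0 lower (0 also at an unadjusted p under 0.05), and the median was 1.08. This list includes RNR2 and RNR4 themselves. The largest change was that of DDR2 (3.41), followed by HUG1, RNR4, RNR2, UBI4 (1.62), DDR48 (1.36) and RAD16 (1.08). DDR2, DDR48 and UBI4 are also general stress genes. The 3-methyladenine glycosylase gene MAG1, also in the list, was at -0.03.

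Among regulators of the G1 to S transition 13 of 13 tested genes were higher, with a median of 0.80 and with MSA1 (1.34), MSA2 (1.21) and SIC1 (1.07) past a difference of 1. The MBF subunit genes MBP1 and SWI6 rose by 0.76 and 0.39. Of other fork and origin firing proteins 20 of 23 were higher (median 0.61, RTT101 highest at 1.02). Of S phase checkpoint genes 11 of 12 were higher (median 0.72, MEC1 at 1.02 after HUG1), and of cohesin and repair genes 12 of 15 (median 0.57, CDC5 highest at 1.04). In these 4 lists 0 genes were lower, also at an unadjusted p under 0.05. With libraries centred, where 21.7% of all genes were higher and 26.8% lower, deoxynucleotide synthesis had 5 higher and 7 lower of 22. DNA damage induced genes had 8 higher and 2 lower of 13, G1 to S regulators 4 and 0 of 13, and checkpoint genes 4 and 1 of 12. Fork proteins had 1 higher and 2 lower of 23, and cohesin and repair genes 2 and 1 of 15.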

How the data were processed

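Total RNA of 25 libraries was sequenced on an Illumina instrument, per the labels. Reads were aligned with Bowtie to build R64, according to the submitters' processing notes. Counter, annotation, strand use and library type were not given in the sources used here. As deposited by the authors, the log2 values had antilogs that sum to 1000000 in each library, so they were used as log2 RPM. The design text speaks of normalization to the 0 min library, which the values do not show. Entries under 15 reads had no value. Of member values, 97.6% were whole reads within 0.02, and no count test was run because the rest were fractional. The 51 rows without a name held no value.

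The 4343 genes that 20 or more of the 24 no-phosphate libraries listed were tested with limma 3.58.1 (trend, robust) in R 4.3.3 on window means, and with a spline of 3 degrees of freedom, adjusted by Benjamini-Hochberg. A call was an adjusted p under 0.05 with no size limit, two-sided, without a pseudocount. Missing values were left out of means and fits. Ratios used exact permutation tests, two-sided, in Python 3.11.15. The test was checked on simulated data with independent libraries, which cannot show how it behaves on successive time points of 1 course. The members, lists and windows were chosen with earlier results of these data known. All members are named; full window values were given for those past a log2 size of 1, the RNR genes, and the largest and smallest difference of each role, POL30 being added later. Sequences came from RefSeq's R64 genome, to which all 46 members matched. Alternatives comprised 3 other scalings, other filters, a pseudocount of 10 RPM, array weights and left-out libraries.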

Additional observations from a re-analysis of the deposited data

Results flagged for a closer look

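Within windows of 4 to 8 values, 6 of 111 groups held a highest or lowest library whose gap to the rest, relative to the range, passed Dixon's 95% limit, which chance gives in about 1 of 20 groups. ORC3 stood at 6.10 at 15 min, against 5.04 to 5.53 in the other early libraries; the 15 min library was the shallowest. PSF2 was at 4.46 at 285 min, against 5.16 to 5.56. PRI2 was at 6.60 at 135 min, against 6.92 to 7.05, and at 7.67 at 255 min, against 6.75 to 7.18. DPB3 was at 5.06 at 345 min, from 17 reads, against 5.71 to 6.20. POL3 was at 6.93 at 315 min, against 6.36 to 6.61.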

How the results depend on the processing

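The scale decided most calls. With libraries centred on their median, 4 members were higher and 4 lower late over early, 6 and 2 middle over early, and 2 and 2 late over middle. Scaled outside ribosomal protein genes, the counts were 4 and 5, 3 and 3, and 2 and 0. Centred on the 3275 genes listed in all 24 libraries, a scale added after the data were seen, they were 4 and 5 (24.7% and 25.7% of all genes), 8 and 3 (18.9% and 19.2%), and 2 and 2 (5.07% and 9.81%). The median gene shifted by 0.45 late over early, 0.28 middle over early and 0.18 late over middle on the deposited scale. The spline count of 6 became 3, 2 and 3 on these scales (19.1%, 20.6% and 19.2% of all genes), 2 among genes listed in all 24 libraries (28.1%), 3 at log2(RPM + 10) (22.6%), 3 without the 15, 345 and 360 min libraries (30%), and 27 at a fitted range of 0.5 (71.7%). A log2 size of at least 1 left 2 higher late over early, 0 and 0 middle over early, and 0 late over middle. An adjusted p under 0.01 left 0 lower middle over early and 2 higher late over middle, and genes listed in all 24 libraries gave 5 higher late over middle. Leaving out 1 library gave 0 to 1 lower members middle over early and late over middle, and 4 to 9 higher late over middle. For the stricter threshold, the genes listed in all 24 libraries and the left-out libraries, no share of all genes is given here. Those counts therefore do not place the members against the rest. Single left-out libraries also ended the middle over early calls of MCM3 and MCM4 (7 libraries each), MCM7 (3), POL3 (4) and RFC3 (13), and the late over middle calls of POL3 (3) and RFC4 (7). Of members below the early range at 0 min, 3 remained when centred.

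Some members changed sign between scales. Those called on the deposited or the other scale were, late over early with libraries centred, MCM4 (-0.00996), MCM5 (-0.12), MCM6 (-0.079), PSF1 (-0.051), PSF3 (-0.36), POL12 (-0.14), POL31 (-0.025), POL30 (-0.066), RFC1 (-0.42), RFA1 (-0.018), RFA2 (-0.11) and RFA3 (-0.39). Outside ribosomal protein genes they were MCM5 (-0.10), PSF1 (-0.027), PSF3 (-0.34), POL12 (-0.11), POL31 (-0.0017), POL30 (-0.042), RFC1 (-0.39), RFC3 (-0.30), RFA2 (-0.087) and RFA3 (-0.37), and middle over early POL3 (-0.046) and RFC3 (-0.059). On the genes listed in all 24 libraries they were MCM5 (-0.10), MCM6 (-0.0019), PSF1 (-0.024), PSF3 (-0.34), POL12 (-0.11), POL30 (-0.039), RFC1 (-0.39), RFC3 (-0.30), RFA2 (-0.084) and RFA3 (-0.37). A further 7, 6 and 6 members changed sign late over early on the 3 scales, and 11, 13 and 12 middle over early, with no call on either scale. The cause was not tested. RNR2 and RNR4 kept their calls at an adjusted p under 0.05 in every alternative run for them; required to reach a log2 size of 1, they kept those late over early and lost the others.

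The middle over early ratio of RNR2 to RNR1 ranged from 0.31 to 0.44 when 1 library was left out, and that of RNR4 to RNR1 from 0.29 to 0.42. The latter was 0.40 and past an unadjusted 0.05 without the 15, 345 and 360 min libraries. Depth limits RNR3, MCM10 and the other untested genes, which lay at or near the floor of 15 reads. No paired analysis was possible because each time point had 1 library.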
